A study of Mus musculus with 4 samples.

Results

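Cadherins are calcium-dependent adhesion molecules that join neighbouring cells, mostly by binding the same cadherin on the next cell. The tail of a classical cadherin inside the cell binds p120-catenin and beta-catenin, and beta-catenin is linked through alpha-catenin to actin. Epithelia typically carry E-cadherin, while N-cadherin prevails in neural tissue and cadherin 11 in mesenchyme. The balance of these genes is only a rough description of how epithelial a tissue sample is, since the classes overlap. The otic vesicle is an epithelial sac that forms the inner ear, lies in mesenchyme and releases the neurons of the otic ganglion.

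The genes described here are 9 cadherins and Epcam, which were taken by name from a deposited table of 34866 genes, 10 genes in all. They were divided by their best-known site of expression into 3 epithelial genes (Cdh1, Cdh3 and Epcam), 5 neural genes (Cdh2, Cdh4, Cdh6, Cdh8 and Cdh10) and 2 mesenchymal genes (Cdh11 and Cdh13). Epcam encodes an epithelial adhesion glycoprotein that is no cadherin, and the Cdh13 product is held in the membrane by a lipid anchor without a catenin-binding tail. The classes overlap in life, since Cdh2 is also used by epithelia and mesenchyme, and Cdh6 and Cdh13 are not limited to 1 tissue.

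RNA was sequenced from otic vesicles of mouse embryos labelled C57/BL6 at embryonic day 11.5, in 2 libraries of Meis2 mutants (KO 1 and KO 2) and 2 wild-type libraries (WT 1 and WT 2). Meis2 encodes a homeodomain transcription factor. The sources used here do not give the mutant allele, whether it acts in all tissues, or the number of embryos behind a library. The p-values thus reflect how far these libraries scatter, and that scatter may be technical. Values are gene-level TPM (transcript abundance on a common scale), which correct for transcript length and add up to 1000000 in each library. They keep no sequencing depth, so no counting interval is given.

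Meis2 RNA was present in all libraries, at 73.2 TPM in KO 1 and 76.6 TPM in KO 2, against 79.0 TPM in WT 1 and 88.7 TPM in WT 2. A gene-level value cannot show a missing exon, so it does not check the genotype labels. All 12 markers of otic epithelium fixed for this purpose were above 0 in every library, and their summed level was 1146 TPM in KO 1 and 1230 TPM in KO 2, against 1539 TPM in WT 1 and 1413 TPM in WT 2. Tissue around the vesicle was sampled as well, with 12 periotic mesenchyme markers summing to 1476 and 999 TPM in KO 1 and KO 2, and to 1062 and 896 TPM in WT 1 and WT 2. The libraries also differed in the RNA of 12 neuron markers. They summed to 401 and 1087 TPM in KO 1 and KO 2, and to 495 and 763 TPM in WT 1 and WT 2. The Y-linked gene Eif2s3y was at 58.1 TPM in KO 2 and 13.4 TPM in WT 1 and at most 0.17 TPM in the other libraries, so the sexes of the embryos differed between libraries of 1 genotype.

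Promoter sequence was matched for 4 of the 10 genes (Epcam, Cdh6, Cdh8 and Cdh10) in RefSeq on GRCm38.p6. An epithelial and a neural gene are shown, because repressors of epithelial genes such as the Snail and Zeb proteins bind E-boxes of the form CACCTG or CAGGTG. Each line gives the 250 bases before the annotated start, 5′ to 3′ on the strand of the gene, with those E-boxes in capitals. Epcam lies on the plus strand (chr17:87635729-87635978) and Cdh6 on the minus strand (chr15:13173676-13173925).

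Epcam: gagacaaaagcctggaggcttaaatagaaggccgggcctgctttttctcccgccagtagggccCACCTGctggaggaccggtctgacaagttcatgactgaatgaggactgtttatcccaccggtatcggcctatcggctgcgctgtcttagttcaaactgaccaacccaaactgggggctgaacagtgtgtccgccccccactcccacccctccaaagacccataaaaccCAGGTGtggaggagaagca

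Cdh6: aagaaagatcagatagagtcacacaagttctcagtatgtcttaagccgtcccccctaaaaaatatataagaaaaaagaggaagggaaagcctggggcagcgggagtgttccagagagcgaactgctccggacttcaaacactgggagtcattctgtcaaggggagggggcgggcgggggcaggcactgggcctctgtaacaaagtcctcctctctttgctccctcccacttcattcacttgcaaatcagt

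The Epcam window held 2 such E-boxes, which begin 187 and 19 bases before the start, and the windows of Cdh6, Cdh8 and Cdh10 held 0. CACCTG and CAGGTG are reverse complements, so the search covers both strands, and 17.2% of the 32851 promoter windows of this length held at least 1. A match describes the letters only.

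The vesicle samples held RNA of genes classed as epithelial and of genes classed as neural or mesenchymal. Bulk values do not show which cells carried each RNA. Epcam was the most abundant of the 10 genes, with a mean of 194 TPM over the 4 libraries, followed by Cdh11 at 117 TPM and Cdh2 at 97.1 TPM. Cdh3 averaged 56.1 TPM and Cdh1 23.7 TPM, so P-cadherin RNA stood above E-cadherin RNA in every library. Cdh4 and Cdh6 followed at 11.0 and 10.8 TPM, then Cdh10 at 2.20 TPM, Cdh13 at 0.91 TPM and Cdh8 at 0.25 TPM. 2 pairs of neighbours in this order overlapped over the 4 libraries, namely Cdh11 with Cdh2 and Cdh4 with Cdh6, and the other neighbours did not. Within each library Cdh11 nevertheless stood above Cdh2.

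**Figure D1:**
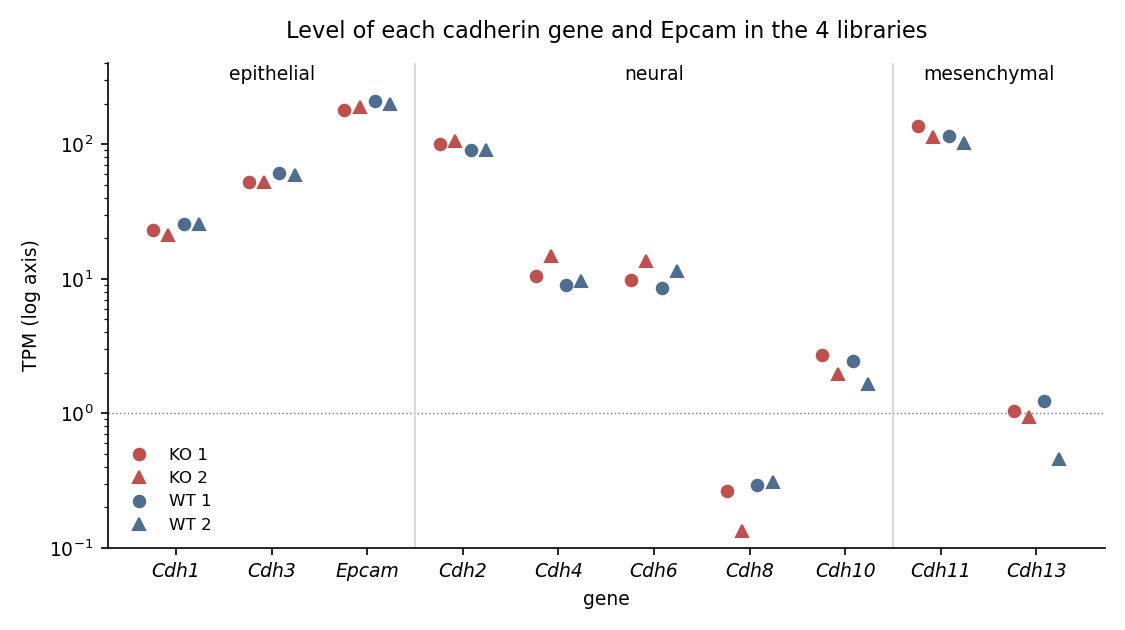
TPM of the 10 genes (log axis) in each library, with KO 1, KO 2, WT 1 and WT 2 side by side for every gene and circles for replicate 1, triangles for replicate 2. Epcam, Cdh11 and Cdh2 lie near or above 100 TPM, and Cdh8 and Cdh13 have means under 1 TPM, marked by the dotted line.

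Between the genotypes, the 3 epithelial genes were lower in both KO libraries than in both WT libraries, and Cdh2 and Cdh4 were higher in both KO libraries than in both WT libraries. None of these differences passed the test. The test was limma on log2(TPM + 1) over the 14496 genes that averaged 1 TPM or more, and 8 of the 10 genes entered it, all but Cdh8 and Cdh13. With limma and Benjamini-Hochberg adjustment, 0 of these 8 passed a threshold of 0.05, each with an adjusted p of 1.00, and 0% of all genes tested passed. At an unadjusted limma p under 0.05 there were 2 of the 8, Cdh3 (lower in KO, as 1.41% of all genes) and Cdh2 (higher in KO, as 2.09% of all genes), among 507 genes in all. An exact test of 2 libraries against 2 cannot give a two-sided p below 0.333.

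Of the 8 genes tested, 3 were lower in KO without overlap, 2 were higher without overlap and 3 overlapped. Over all genes tested, 10.5% were lower in KO without overlap and 19.2% were higher without overlap. The median difference in log2(TPM + 1), KO minus WT, was 0.16 over the 8 genes and 0.03 over all genes tested. In bulk tissue, fewer cells of a type and less RNA per cell cannot be told apart, and this holds for every value below.

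**Figure D2:**
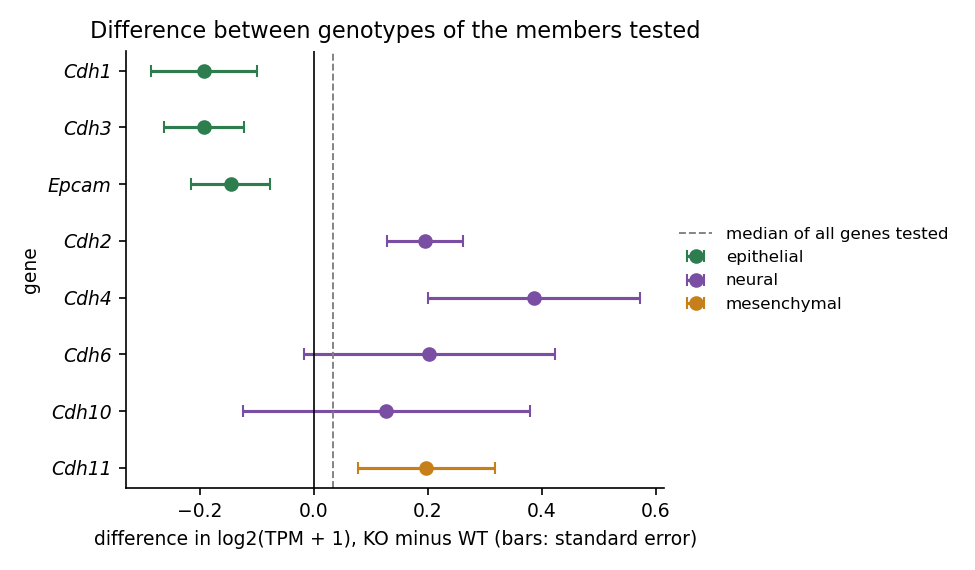
Difference in log2(TPM + 1), KO minus WT, of the 8 genes tested (points) with its standard error from limma (bars), coloured by class, and the median of all genes tested as a dashed line. The 3 epithelial genes lie between -0.19 and -0.15 and the 5 others between 0.13 and 0.39, and no gene passed the threshold.

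Among the epithelial genes, Cdh1 encodes E-cadherin, the main cadherin of adherens junctions in epithelia. Cdh1 (ENSMUSG00000000303.12, chromosome 8, 106603351 to 106670246, plus strand, GRCm38) was at 23.1 TPM in KO 1 and 21.1 TPM in KO 2, against 25.4 TPM in WT 1 and 25.3 TPM in WT 2. The WT libraries were nearly equal and both KO libraries lay below them. The difference in log2(TPM + 1) was -0.19 (SE 0.093, limma adjusted p = 1.00), and it was -0.13 without KO 2 and -0.26 without KO 1.

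Cdh3 encodes P-cadherin, a close relative of E-cadherin found in placenta and in basal and embryonic epithelia. Its gene (ENSMUSG00000061048.8, chromosome 8, 106510891 to 106557297, plus strand) lies upstream of Cdh1 in the same orientation, with 46.1 kb between them. Cdh3 was at 52.1 TPM in KO 1 and 52.6 TPM in KO 2, against 61.2 TPM in WT 1 and 58.6 TPM in WT 2. The 2 KO values were the closest pair of this gene, and the groups did not overlap. On the log2(TPM + 1) scale the difference was -0.19 (SE 0.071, limma adjusted p = 1.00).

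Epcam (ENSMUSG00000045394.8, chromosome 17, 87635979 to 87651129, plus strand) was at 180 TPM in KO 1 and 188 TPM in KO 2, against 210 TPM in WT 1 and 198 TPM in WT 2. The gap between the nearest libraries of the 2 genotypes, KO 2 and WT 2, was about as wide as the spread within a genotype. KO minus WT, the log2(TPM + 1) difference was -0.15 (SE 0.069, limma adjusted p = 1.00), the smallest of the 3, and it was -0.10 without WT 1.

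The proportions of the 3 epithelial genes to each other were compared within each library. Cdh3 stood at 0.289 and 0.280 of the Epcam level in KO 1 and KO 2, and at 0.292 and 0.296 of it in WT 1 and WT 2, a narrow gap without overlap. Cdh1 stood at 0.128 and 0.112 of the Epcam level in KO 1 and KO 2, and at 0.121 and 0.128 of it in WT 1 and WT 2. The lowest Cdh1 share was that of KO 2, and the genotypes overlapped for it. Beside these genes, the summed otic epithelium markers were lower in both KO libraries too. Oc90 was the largest part of that sum in every library. It was at 561 and 602 TPM in KO 1 and KO 2, and at 912 and 724 TPM in WT 1 and WT 2. Of the 12 markers taken singly, 10 had a difference in log2(TPM + 1) below 0, and 7 of these were lower in both KO libraries than in both WT libraries. The latter held for 10.5% of all genes tested. The part of tissue makeup in the epithelial differences was not tested.

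Among the neural genes, Cdh2 encodes N-cadherin, the main cadherin of the neural tube and of many mesenchymal cells. Cdh2 (ENSMUSG00000024304.14, chromosome 18, 16588877 to 16809246, minus strand) was at 101 TPM in KO 1 and 106 TPM in KO 2, against 90.4 TPM in WT 1 and 90.6 TPM in WT 2. The WT libraries were again nearly equal, and both KO libraries lay above them. The difference in log2(TPM + 1) was 0.19 (SE 0.067, limma adjusted p = 1.00), with values between 0.16 and 0.23 when each library was left out in turn. KO 2 was the highest library for both Cdh2 and the sum of the neuron markers, while KO 1 was above both WT libraries for Cdh2 and the lowest of all for the neuron markers. The sum of 10 hindbrain markers was higher in both KO libraries, at 297 and 224 TPM in KO 1 and KO 2, against 213 and 161 TPM in WT 1 and WT 2. Zic1 and Zic2 made up most of that sum in every library, and the hindbrain markers Hoxa2 and Hoxb2 overlapped between the genotypes. The part of neurons or neural tube in the Cdh2 values was not tested.

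Cdh4 encodes R-cadherin, first known from the retina and able to bind N-cadherin. Cdh4 (ENSMUSG00000000305.12, chromosome 2, 179442431 to 179899373, plus strand) was at 10.5 TPM in KO 1 and 14.8 TPM in KO 2, against 9.06 TPM in WT 1 and 9.58 TPM in WT 2. KO 2 stood apart from the other 3 libraries, and it is also the library with the highest sum of neuron markers. KO 1 had the lowest such sum, and it was above both WT libraries for Cdh4. The part of neurons in the Cdh4 values was not tested. On the log2(TPM + 1) scale the difference was 0.39 (SE 0.19, limma adjusted p = 1.00), and it was 0.16 without KO 2 and 0.61 without KO 1.

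Cdh6, Cdh8 and Cdh10 encode type II cadherins, a subfamily with a different binding interface, which are known from subsets of neurons and, for Cdh6, from neural crest and kidney. Cdh6 (ENSMUSG00000039385.5, chromosome 15, 13028701 to 13173675, minus strand) was at 9.80 TPM in KO 1 and 13.5 TPM in KO 2, against 8.47 TPM in WT 1 and 11.5 TPM in WT 2. The libraries numbered 2 were higher than those numbered 1 in both genotypes, and the genotypes overlapped. KO minus WT, the log2(TPM + 1) difference was 0.20 (SE 0.22, limma adjusted p = 1.00), and it was -0.0082 without KO 2 and 0.41 without KO 1.

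Cdh10 (ENSMUSG00000022321.15, chromosome 15, 18818947 to 19014236, plus strand) had the opposite order of numbers, at 2.69 TPM in KO 1 and 1.98 TPM in KO 2, against 2.46 TPM in WT 1 and 1.66 TPM in WT 2. Its genotypes overlapped, with a difference in log2(TPM + 1) of 0.13 (SE 0.25, limma adjusted p = 1.00). Cdh8 (ENSMUSG00000036510.17, chromosome 8, 99024471 to 99416471, minus strand) was at 0.26 TPM in KO 1 and 0.13 TPM in KO 2, against 0.29 TPM in WT 1 and 0.31 TPM in WT 2. Both KO libraries lay below both WT libraries, unlike the other neural genes, and at this level Cdh8 was not tested.

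Among the mesenchymal genes, Cdh11 encodes cadherin 11, also called OB-cadherin, a type II cadherin of loose mesenchyme and bone-forming cells. Cdh11 (ENSMUSG00000031673.6, chromosome 8, 102632095 to 102785642, minus strand) was at 137 TPM in KO 1 and 113 TPM in KO 2, against 115 TPM in WT 1 and 103 TPM in WT 2. KO 1 was the highest library, and KO 2 lay just under WT 1, so the genotypes overlapped. The difference in log2(TPM + 1) was 0.20 (SE 0.12, limma adjusted p = 1.00), and it was 0.06 without KO 1 and 0.33 without KO 2. The 4 libraries had the same order for Cdh11 as for the sum of the periotic mesenchyme markers, from KO 1 down through WT 1 and KO 2 to WT 2. The part of mesenchyme content in the Cdh11 values was not tested.

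Cdh13 (ENSMUSG00000031841.19, chromosome 8, 118283733 to 119324921, plus strand) encodes T-cadherin, known from blood vessels and neurons. It was at 1.03 TPM in KO 1 and 0.93 TPM in KO 2, against 1.23 TPM in WT 1 and 0.46 TPM in WT 2. The highest and the lowest library were both WT, and Cdh13, with its mean under 1 TPM, was not tested. Of the 10 genes, 5 lie on chromosome 8 (Cdh1, Cdh3, Cdh8, Cdh11 and Cdh13), and Cdh11 is separated from Cdh3 by 3.73 Mb.

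The classes were set against each other within each library. The mean log2(TPM + 1) of the 3 epithelial genes was 5.94 in KO 1 and 5.92 in KO 2, against 6.13 in WT 1 and 6.08 in WT 2. The mean of the 7 neural and mesenchymal genes, Cdh8 and Cdh13 included, was 3.43 in KO 1 and 3.45 in KO 2, against 3.32 in WT 1 and 3.23 in WT 2. Epithelial minus neural and mesenchymal mean therefore came to 2.51 in KO 1 and 2.48 in KO 2, against 2.81 in WT 1 and 2.85 in WT 2. KO minus WT, this balance differed by -0.34 on the log2 scale, while libraries of 1 genotype had a pooled SD of 0.028. That SD rests on 2 libraries per genotype, so it is a weak yardstick for the difference. The balance is a description without a p, because the genes were chosen with earlier results known. The neural mean alone did not overlap between genotypes (KO 3.17 and 3.27, WT 3.05 and 3.07, replicate 1 first). The mesenchymal mean alone did overlap (KO 4.066 and 3.895, WT 4.005 and 3.621). Within each genotype these 2 means ordered the libraries oppositely, so part of their scatter cancels in the joint mean.

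**Figure D3:**
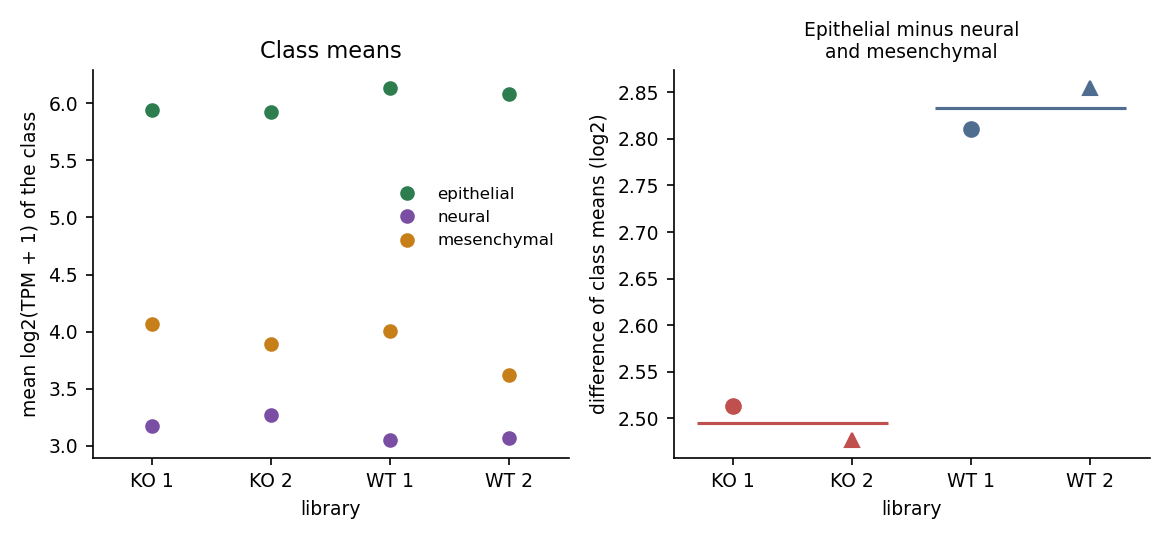
Left, mean log2(TPM + 1) of the epithelial, neural and mesenchymal genes in each library. Right, epithelial mean minus the mean of the 7 neural and mesenchymal genes, with a line at each genotype's mean; the axis does not start at 0. Both KO libraries lie near 2.5 and both WT libraries above 2.8.

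Single pairs of genes gave the same order, which for pairs with Cdh2 follows from the values of the single genes above. Cdh1 RNA was 0.228 and 0.198 times Cdh2 RNA in KO 1 and KO 2, and 0.281 and 0.280 times in WT 1 and WT 2, on the TPM scale. Epcam was 1.78 and 1.77 times Cdh2 in KO 1 and KO 2, and 2.32 and 2.18 times in WT 1 and WT 2. Against Cdh11, Epcam was 1.31 and 1.66 times as abundant in KO 1 and KO 2, and 1.83 and 1.92 times in WT 1 and WT 2. By contrast, Cdh2 per Cdh11 overlapped between the genotypes, at 0.738 and 0.937 in KO 1 and KO 2 and at 0.789 and 0.880 in WT 1 and WT 2.

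The 9 cadherins summed to 338 TPM in KO 1 and 325 TPM in KO 2, against 313 TPM in WT 1 and 301 TPM in WT 2. Cdh1 and Cdh3 together made up 22.3% and 22.7% of that sum in KO 1 and KO 2, and 27.7% and 27.9% in WT 1 and WT 2. Cdh2 and Cdh11 together made up 70.5% and 67.7% in KO 1 and KO 2, and 65.5% and 64.3% in WT 1 and WT 2. The groups did not overlap for either share, but Cdh2 alone and Cdh11 alone did overlap as shares.

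**Figure D4:**
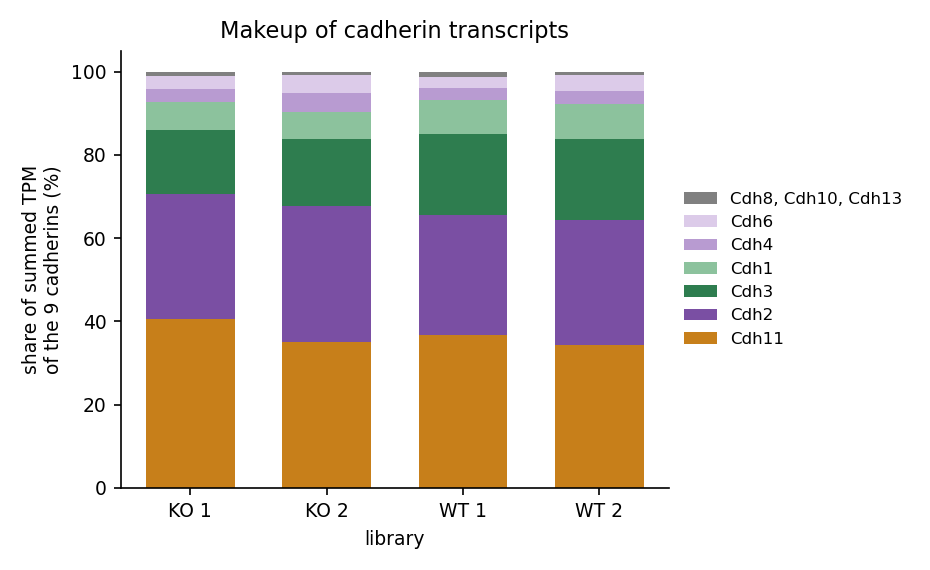
Share of each cadherin in the summed TPM of the 9 cadherins (percent), stacked for each library. The 2 green segments, Cdh3 and Cdh1, make up 22.3% and 22.7% in KO 1 and KO 2 and 27.7% and 27.9% in WT 1 and WT 2.

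Of 14 other cadherins listed, 5 passed the filter of 1 TPM, 0 passed the limma test, and 4 were higher and 1 lower in KO. Cdh5, the cadherin of endothelium, was at 41.4 TPM in KO 1 and 30.2 TPM in KO 2, against 29.4 TPM in WT 1 and 30.1 TPM in WT 2, so KO 1 alone was high. Cdh24 was at 23.9 and 30.5 TPM in KO 1 and KO 2, and at 21.1 and 24.9 TPM in WT 1 and WT 2, with overlap. Cdh23, which forms the tip links of mature hair cells, was at most 0.24 TPM.

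Of 16 catenins and other junction partners listed, 15 were tested and 0 passed. In KO 8 were higher, 4 of them without overlap (Ctnna2, Cttn, Jup and Vcl), and 7 were lower, 0 of them without overlap. The median difference of the 15 in log2(TPM + 1) was 0.01. Over all genes tested, 19.2% were higher in KO without overlap and 10.5% were lower without overlap. Ctnna2, the neural alpha-catenin, was at 23.4 TPM in KO 1 and 27.7 TPM in KO 2, against 18.2 TPM in WT 1 and 15.8 TPM in WT 2, with a difference of 0.56 (SE 0.13, limma adjusted p = 1.00). Cttn, which encodes the actin-binding protein cortactin, differed by 0.15 (SE 0.071, limma adjusted p = 1.00). Ctnnb1, the beta-catenin gene, was far more abundant than any cadherin, at 1215 and 1113 TPM in KO 1 and KO 2 and at 1185 and 1023 TPM in WT 1 and WT 2. Of 8 genes that cut or degrade cadherins and their precursors, 0 passed and 6 were higher, with Furin at 0.05 (SE 0.086) and Psen2 at -0.21 (SE 0.13).

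All 8 listed Epcam partners and relatives were tested, and all 8 had a KO mean below the WT mean, 4 of them without overlap, while 0 passed. Their median difference in log2(TPM + 1) was -0.13, against 0.03 over all genes tested. Lower in KO without overlap were 10.5% of all genes tested. Cldn7, a claudin that binds the Epcam protein, was at 93.4 TPM in KO 1 and 98.8 TPM in KO 2, against 107 TPM in WT 1 and 121 TPM in WT 2 (difference -0.24, SE 0.087, limma adjusted p = 1.00). Prss8, the membrane protease prostasin, was at 29.9 and 33.7 TPM in KO 1 and KO 2, and at 39.2 and 39.9 TPM in WT 1 and WT 2 (difference -0.31, SE 0.093, limma adjusted p = 1.00).

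Regulators of the epithelial state were less uniform. Of 10 listed epithelial regulators 7 were tested, 0 passed, and 5 were higher and 2 lower in KO. All 5 higher ones overlapped between genotypes, and the median difference of the 7 in log2(TPM + 1) was 0.0048. The 2 lower ones did not overlap between genotypes, as was so for 10.5% of all genes tested. Esrp1, a splicing factor of epithelial cells, was at 40.3 and 48.2 TPM in KO 1 and KO 2, and at 49.8 and 52.1 TPM in WT 1 and WT 2. Grhl2, a transcription factor that activates Cdh1 in epithelia, was at 16.6 and 19.0 TPM in KO 1 and KO 2, and at 19.4 and 19.9 TPM in WT 1 and WT 2. Of 9 listed repressors and E-box factors 8 were tested, 0 passed, and all 8 had a higher KO mean, with a median difference of 0.11. Only 1 of them did not overlap, while 19.2% of all genes tested were higher in KO without overlap. Some differences were close to none, with Snai1 at 0.00037 (SE 0.12) and Zeb2 at 0.06 (SE 0.29). Snai2, a Snail family repressor, was at 32.2 and 24.0 TPM in KO 1 and KO 2, and at 26.5 and 19.98 TPM in WT 1 and WT 2, with overlap. Zeb1 and Zeb2, which encode zinc finger repressors of Cdh1, both overlapped, with Zeb1 at 19.5 and 19.3 TPM in KO 1 and KO 2 and at 19.3 and 16.2 TPM in WT 1 and WT 2. Tcf4 was at 84.7 and 76.1 TPM in KO 1 and KO 2, and at 75.7 and 73.0 TPM in WT 1 and WT 2. Twist1, which is also a mesenchyme marker, had the overlapping values of 180 and 132 TPM in KO 1 and KO 2, and of 157 and 126 TPM in WT 1 and WT 2.

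**Figure D5:**
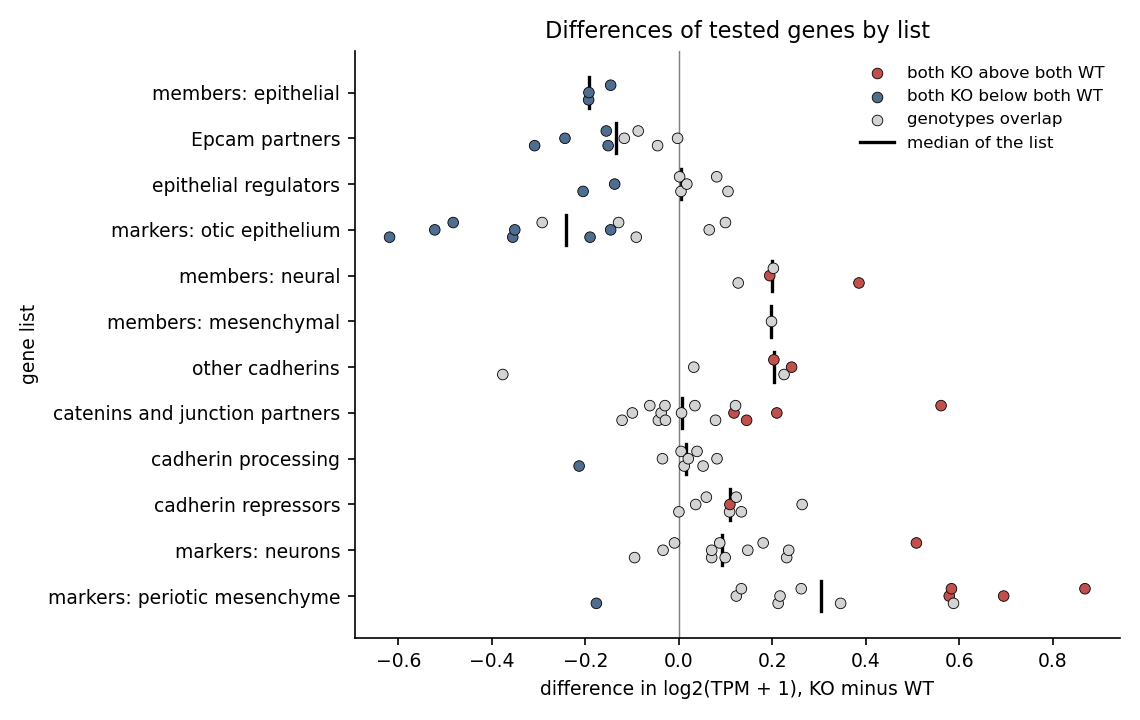
Difference in log2(TPM + 1), KO minus WT, of every tested gene in 12 lists (points), coloured by whether both KO libraries lie above or below both WT libraries, with the median of each list as a black line. The epithelial genes and the Epcam partners lie at or below 0, and catenins and cadherin-processing genes lie on both sides of it; no gene passed the threshold.

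Markers of other cell types that carry cadherins are given for comparison. Beside the counts without overlap below stand 19.2% of all genes tested that were higher in KO without overlap, and 10.5% that were lower. Of 12 neuron markers 9 were higher and 3 lower in KO, 1 without overlap, and of 12 periotic mesenchyme markers 11 were higher and 1 lower, 4 higher and 1 lower without overlap. Of 10 hindbrain markers 5 were tested, and 4 were higher and 1 lower in KO, 2 higher without overlap, with a median difference of 0.47. Zic1 was at 146 and 129 TPM in KO 1 and KO 2 and at 106 and 77.2 TPM in WT 1 and WT 2, and Lmx1b at 13.8 and 9.66 TPM in KO 1 and KO 2 and at 8.02 and 8.09 TPM in WT 1 and WT 2. The other tested hindbrain markers, Zic2, Hoxa2 and Hoxb2, overlapped, with differences of 0.48, 0.02 and -0.03. The hindbrain genes Olig2, Pax7, Pax6 and Egr2 averaged under 1 TPM and Nkx2-2 was listed at 0 in every library. Of 10 epidermal and simple-epithelium markers 6 were tested and 5 were lower, 3 without overlap, and the list summed to 243 and 234 TPM in KO 1 and KO 2, against 304 and 301 TPM in WT 1 and WT 2. Krt8 and Krt18, keratins of simple epithelia, had differences of -0.40 (SE 0.064) and -0.31 (SE 0.062), beyond those of the 3 epithelial adhesion genes. The epidermal genes Krt5 and Trp63 reached 3.28 and 1.29 TPM in KO 1 and at most 0.22 TPM elsewhere. Of 8 neural crest and glia markers 7 were tested and 5 were higher, with sums of 116 and 123 TPM in KO 1 and KO 2 and of 116 and 115 TPM in WT 1 and WT 2. Of 8 endothelial markers 7 were higher, with sums of 219 and 170 TPM in KO 1 and KO 2 and of 174 and 198 TPM in WT 1 and WT 2. Of 8 macrophage markers 7 were higher, with sums of 64.2 and 48.5 TPM in KO 1 and KO 2 and of 40.9 and 53.0 TPM in WT 1 and WT 2. Of 8 erythroid markers 6 were lower, and their sum was 11973 and 13458 TPM in KO 1 and KO 2, against 9362 TPM in WT 1 and 22025 TPM in WT 2. The sums of these 4 lists overlapped between genotypes.

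The genes whose profile over the 4 libraries came closest to the leading gene of each class were sought among the 9254 coding genes that averaged 10 TPM or more. Likeness was the root mean square difference of log2(TPM + 1) after each gene was centred on its mean. For Epcam they were Nup107, Atpif1 and Zdhhc13, with differences of 0.0074, 0.0089 and 0.012, for Cdh2 they included Rftn2 and Acap2, with 0.0096 and 0.012, and for Cdh11 they were 2310057M21Rik, Blvra and Col26a1, with 0.0069, 0.011 and 0.012. With 4 libraries a close match describes these values only.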

How the data were processed

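The authors deposited gene-level TPM for the 4 libraries. Salmon 0.9.1 and the build GRCm38 are named, per the submitters' processing notes. The sources used here name neither the annotation release nor how transcripts were summed to genes. Per the labels' protocols, an RNeasy Micro kit and a NextSeq sequencer were used. TPM keeps no depth, so the precision given here rests on the scatter between libraries, with 2 per genotype.

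Gene IDs were matched to symbols, which named 34582 of 34866, and to GENCODE M21 coordinates. The filter kept the 14496 genes averaging 1 TPM or more. They were fitted on log2(TPM + 1), that is with a pseudocount of 1 TPM, in limma 3.58.1 (R 4.3.3). Genotype was the one factor, variances were moderated towards a trend with level, and two-sided p-values were adjusted by Benjamini-Hochberg over all genes kept. Fold changes on this scale understate changes of low genes. SE is limma's moderated standard error. The fit was tested on simulated data.

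The members and gene lists were chosen with earlier results of these data known. Named are the 10 members, the 2 tested genes with the smallest p in each of 6 lists of related genes, and Meis2. Lists of cell type markers are given by their sums and counts. Cdh23, Ctnnb1, Twist1, Snai1, Zic1, Zic2, Hoxa2, Hoxb2, Lmx1b, Jup, Vcl, Zeb1, Zeb2 and Eif2s3y were named as markers or after their values were seen. The same holds for Krt5, Trp63, Krt8, Krt18, Olig2, Pax7, Pax6, Egr2, Nkx2-2 and Oc90. 1 gene of similar profile to Cdh2 is not reported here. In all, 13 alternatives were run.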

Additional observations from a re-analysis of the deposited data

How the results depend on the processing

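With limma, 0 genes passed under 11 of the 13 alternatives, 2 passed without KO 1 and 10 without KO 2 (range over the libraries left out 0 to 10), none of them a cadherin or Epcam. Of 103 recomputed differences of single members, 100 kept their direction and 0 passed the threshold. The 3 that turned were Cdh6 without KO 2 and Cdh10 without WT 2 and without KO 1 (-0.03). Changing the filter on low values or adding the replicate block cannot alter a difference. The values under these settings kept their direction by construction. With a library left out, the Cdh6 difference ranged from -0.0082 to 0.41 and that of Cdh10 from -0.062 to 0.32. The number of epithelial genes lower in KO without overlap was 3 under all 8 alternatives that alter the values or the libraries. With a library left out it could not be otherwise, since all 3 already stood apart with every library in. The number of neural and mesenchymal genes higher without overlap was 2, and 3 without globin and mitochondrial genes. It was from 3 to 5 with a library left out, where there are fewer libraries to overlap. The epithelial minus neural and mesenchymal balance, KO minus WT, was -0.34, -0.29 with a pseudocount of 5 TPM, and from -0.36 to -0.32 with a library left out. With the replicate block, 0 genes passed (1178 at an unadjusted p under 0.05), and the members' differences were unchanged by construction, with adjusted p from 0.59 for Cdh2 upward. In the labels, same-numbered libraries share only that number. In the values, deviations of WT 1 and KO 1 from their genotype means correlated at r = 0.42 over genes. What same-numbered libraries have in common is not stated in the labels. Leaving out globin and mitochondrial genes, and the counts of genes without overlap, were chosen after seeing the data. With 2 libraries per genotype and unknown depth, a difference that missed the threshold is not shown to be absent.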
